A study of Homo sapiens with 6 samples.

Results

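The 42 genes described here encode splicing regulators: 11 SR proteins (SRSF1 to SRSF11), 20 heterogeneous nuclear ribonucleoproteins (hnRNPs) and 11 other splice regulators, namely SYNCRIP, TRA2A, TRA2B, U2AF1, U2AF2, SF3B1, PTBP1, PTBP2, KHDRBS1, RBM39 and QKI. They were chosen by name among the 17901 genes of the deposited log2 table, out of 62703 genes counted, and all 42 were measured and passed the filter on low counts. The question was whether their mRNA levels differed after knockdown of MED12, the subunit that holds the kinase module of the Mediator complex together, and whether SR proteins and hnRNPs moved alike. The cells were 22Rv1, an established human prostate cancer line that expresses the androgen receptor. The siCtrl group received a non-targeting pool of siRNAs and the siMED12 group a pool against human MED12, each at 25 pmol with Lipofectamine RNAiMAX, and there were 3 libraries (replicates 1 to 3) in each group. Cells in both groups were seeded 24 h before transfection, had their medium changed after 6 h and were harvested on day 3. Knockdown was therefore transient and partial, in 1 cell line.

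Poly(A) RNA was sequenced in strand-specific libraries that held between 16136699 and 17012788 counts. MED12 measured 67.8, 77.7 and 72.6 CPM, the counts scaled by library size and TMM factors to a common total, with siCtrl against 23.9, 15.0 and 30.1 CPM after knockdown. The groups did not overlap, and MED12 fell by 1.66 ± 0.23 (SE) on the log2 scale (edgeR quasi-likelihood test, adjusted p = 0.0314). That call was lost when siCtrl 1, siCtrl 2, siMED12 1 or siMED12 2 was left out, and it held with the block. All 7 prostate luminal markers stayed above 1 CPM in every library, whereas 0 of 5 leukocyte and 0 of 4 endothelial markers did. Of 5 fibroblast markers, COL1A1 and LUM exceeded 1 CPM in every library, and the summed level of that list was 25.3 to 38.8 CPM in siCtrl against 26.2 to 41.8 CPM in siMED12. Libraries with the same replicate number resembled each other across genes, so each result is given from a fit without that number and from a fit in which it is a blocking factor. The cells were sequenced in bulk, so fewer cells expressing a gene and less of its RNA per cell cannot be told apart. The share of mitochondrial counts, 4.43% to 10.1%, also followed the replicate number.

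SR proteins carry an arginine- and serine-rich domain. They bind exonic enhancers, recruit U1 and U2 snRNPs to nearby splice sites and are switched by phosphorylation. The hnRNPs coat nascent transcripts and often act as silencers, so the balance between both families shapes which exons are kept. Many of the genes control their own mRNA through poison exons that lead to nonsense-mediated decay. In Gencode 44, 35 of the 42 genes have at least 1 annotated decay transcript, among them all 11 SR genes. The counts used here pool all transcripts of a gene, so a shift between productive and decayed isoforms could not be told from another change in level.

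The promoter windows of both families were compared for 3 motifs, with no use of expression. RefSeq promoter windows (GRCh38.p14, from 250 bases before to 50 bases after each start) were matched for 37 of the 42 genes. The E-box, CACGTG, which MYC binds together with MAX, was searched on both strands and lay in a window of 7 of 19 hnRNP genes (36.8%) and of 3 of 8 other regulators, but of 0 of 10 SR genes. Over all genes with a window it was present in 8.77%. The CCAAT box, CCAAT on either strand, lay in a window of 17 of 19 hnRNP genes (89.5%) and of 2 of 10 SR genes, against 39.7% of all genes. Counted by windows, since some genes have several, the CCAAT box was in 63.3% of hnRNP windows, 23.1% of SR windows and 34.6% of all windows. TATAAA, the TATA box on either strand, lay in 3 of 13 SR windows, 3 of 30 hnRNP windows and 0 of 10 windows of other regulators, against 11.5% of all windows. A missing motif says only that its letters are not in these windows, and the windows were not matched for base composition. Sites in 5 genes are shown because those genes were lower after knockdown in the fit with the block; capitals mark the motif, and each line reads 5′ to 3′ on the strand of the gene.
HNRNPH3 E-box (chr10:68331631-68331660, plus strand): tgccggtcgaacCACGTGgggccctttccg
HNRNPD E-box (chr4:82374001-82374030, minus strand): gcgctctcgcgtCACGTGaccgggacgcgc
SYNCRIP E-box (chr6:85643851-85643880, minus strand): cgccccgggggaCACGTGcgcctgcagctt
HNRNPAB CCAAT box (chr5:178204403-178204431, plus strand): gcgccgtggcggCCAATgggacgctgaag
HNRNPAB CCAAT box (chr5:178204446-178204474, plus strand): ggacttgagcagCCAATgagtgtgcagtt
HNRNPA0 CCAAT box on the opposite strand (chr5:137754423-137754451, minus strand): agcgaggcggggATTGGctggtagcccta
The E-box was found among genes of every kind of call. It lay in a window of 3 of 11 genes that were lower, 1 of 5 that were higher and 6 of 21 that were not called. For the CCAAT box these counts were 7 of 11, 1 of 5 and 12 of 21. For TATAAA they were 4 of 11, 1 of 5 and 1 of 21. These splits were not tested.

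The 42 genes changed little. Without the block, edgeR called 0 of 42 members in either direction at an adjusted p below 0.05, and DESeq2 and limma-trend also called 0. Over all genes edgeR called 0.151% higher and 0.413% lower, 0.564% in either direction, and DESeq2 called 4.47%. Of the members, 0 were higher and 2, QKI and SYNCRIP, were lower at an unadjusted p below 0.05 in edgeR, against 7.65% and 7.93% of all genes. With the block, 5 members rose and 13 fell, against 17.1% of all genes called higher and 16.2% called lower. The 5 that rose are 11.9% of the members and the 13 that fell are 31.0%. Of the called members 27.8% were higher, beside 51.3% of all called genes. Scaling by library size alone gave 9 higher and 6 lower, or 60.0% higher, beside 61.2% of all called genes, and it shifted all genes upwards. A correction for GC content and length gave 2 higher and 20 lower, or 9.09% higher, beside 42.7% of all called genes. Fold changes of the members ranged from -0.40 for QKI to 0.26 for PTBP2 on the log2 scale.

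**Figure D1:**
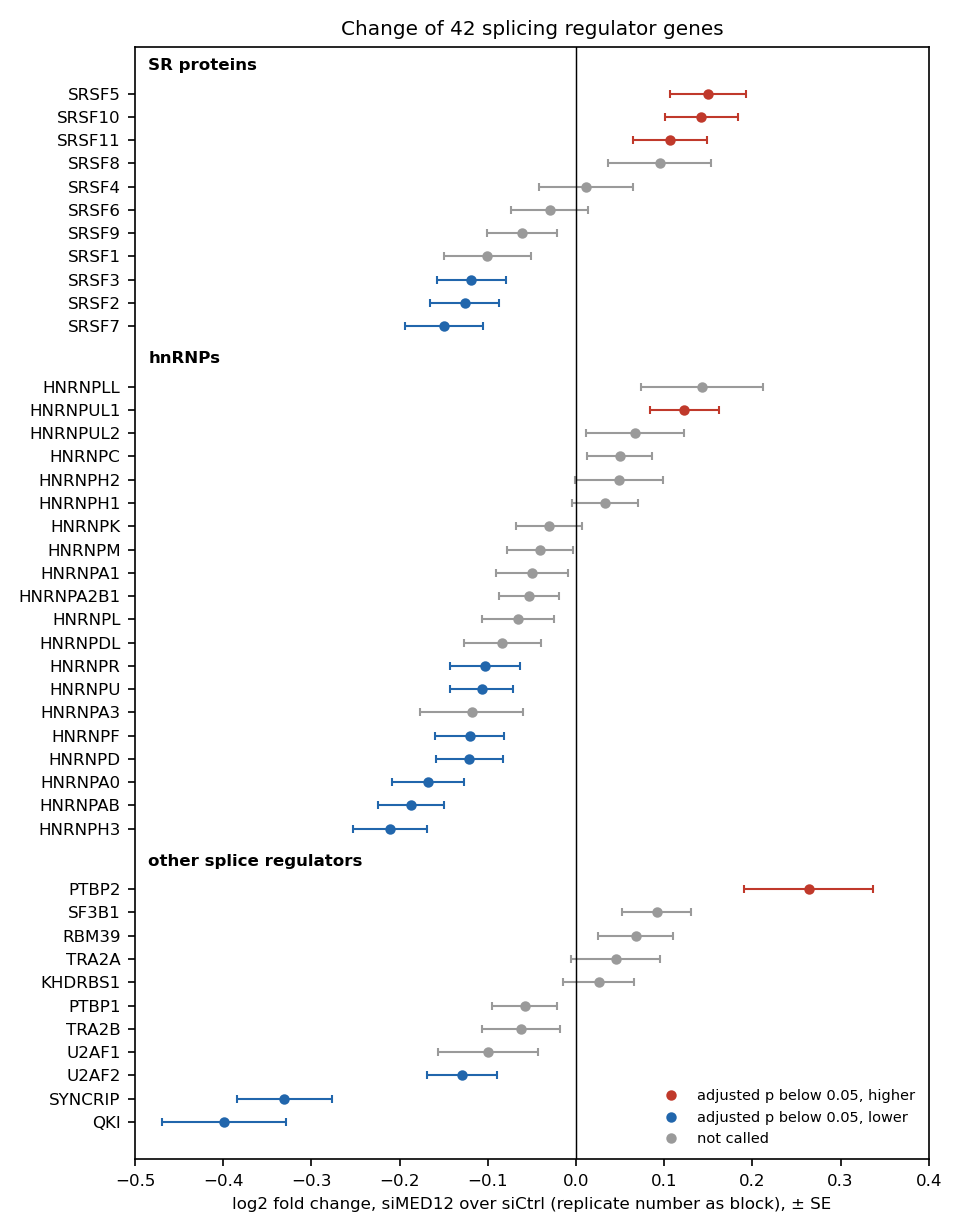
Log2 fold change of each of the 42 genes in siMED12 over siCtrl, from edgeR with replicate number as blocking factor; points are estimates, bars are SE, and colours mark genes with an adjusted p below 0.05. QKI and SYNCRIP lie farthest to the left at -0.40 and -0.33, PTBP2 lies farthest to the right at 0.26, and the other genes lie between -0.21 and 0.15.

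With the block, SR proteins were called in both directions and the called hnRNPs were mostly lower; the difference between the families was not tested. Among the 11 SR proteins, 3 rose, 3 fell and 5 were not called with the block, and the median log2 fold change without the block was -0.02. Among the 20 hnRNPs, 1 rose, 7 fell and 12 were not called. Their median was -0.06, with 14 of 20 estimates below 0, beside 8524 of 17901 over all genes without the block. The shares called higher and lower were 27.3% and 27.3% of SR proteins and 5% and 35% of hnRNPs, against 17.1% and 16.2% of all genes. By library size alone, the counts called became 3 higher and 1 lower for SR proteins and 3 and 3 for hnRNPs. Over all genes they became 3807 and 2413. With the GC and length correction they were 1 and 5 for SR proteins and 1 and 12 for hnRNPs, beside 2529 and 3396 over all genes. The 11 other regulators had 1 higher, 3 lower and a median of -0.06, beside a median of 0.02 over all 17901 genes. Within replicate pairs 1, 2 and 3, the hnRNP median was -0.08, -0.06 and -0.04, and the SR median was 0.00, -0.09 and 0.04. The hnRNP median thus kept its sign in every pair, and the SR median did not. With the block, scaling by library size alone raised the median of all genes from 0.02 to 0.06, the hnRNP median from -0.06 to -0.02 and the SR median from -0.03 to 0.01, so the sign of the SR median turned with a shift that all genes shared, and both families stayed below the median of all genes. Summed over its members, the hnRNP signal was 8323, 8658 and 8072 CPM in siCtrl against 7897, 8271 and 7896 CPM in siMED12, a change of -3.95% in the means. The SR sum was 2220, 2384 and 2540 CPM in siCtrl against 2169, 2281 and 2614 CPM in siMED12, a change of -1.12%. The ranges of the groups overlapped for both sums. Both sums leave out reads on the rows of near-identical copies of members, which held most of the reads of HNRNPA1 and its copies. Moving TRA2A and TRA2B to the SR proteins, and SYNCRIP, PTBP1 and PTBP2 to the hnRNPs, left the medians at -0.02 and -0.06.

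QKI, a STAR-domain protein that binds introns and guides alternative splicing, circular RNA formation and mRNA export, had the largest decrease (chr6:163414000-163578592, plus strand, GRCh38). It measured 53.5, 55.5 and 45.8 CPM in siCtrl against 43.8, 36.8 and 36.7 CPM in siMED12. Every siMED12 library lay below every siCtrl library. QKI fell by 0.40 ± 0.07 (SE) on the log2 scale with the block (adjusted p = 1.73e-05), and the adjusted p was 0.175 without it. SYNCRIP, also called hnRNP Q, acts in mRNA stability, translation and splicing (chr6:85607779-85644063, minus strand). It measured 107.0, 92.2 and 91.0 CPM in siCtrl against 85.7, 68.8 and 76.5 CPM in siMED12, again without overlap. SYNCRIP fell by 0.33 ± 0.05 with the block (adjusted p = 4.76e-06; 0.219 without it). Its paralog HNRNPR measured 308, 338 and 292 CPM in siCtrl against 282, 315 and 277 CPM in siMED12. The groups overlapped for HNRNPR, which fell by 0.10 ± 0.04 with the block (adjusted p = 0.0393). HNRNPR passed in 6 of 10 blocked fits and was lost in DESeq2, by library size alone and without replicate pair 1 or 3, with a highest adjusted p of 0.196.

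HNRNPH3, a small member of the G-run-binding H/F family, measured 214, 249 and 247 CPM in siCtrl against 187, 205 and 222 CPM in siMED12. It was lower in siMED12 within each of the 3 pairs although the groups overlapped, and it fell by 0.21 ± 0.04 with the block (adjusted p = 0.000123; 0.373 without it). Its relatives did not move uniformly. HNRNPF fell by 0.12 ± 0.04 with the block (adjusted p = 0.0138), and lost its call without replicate pair 1 and by library size alone. In contrast, HNRNPH1 had a log2 fold change of 0.03 ± 0.04 and HNRNPH2 of 0.05 ± 0.05. HNRNPAB, which binds RNA in nucleus and cytoplasm, measured 468, 516 and 446 CPM in siCtrl against 410, 460 and 386 CPM in siMED12. It was lower in every pair and fell by 0.19 ± 0.04 with the block (adjusted p = 0.000126; 0.435 without it). HNRNPA0, a binder of AU-rich elements in mRNA and the product of a gene with 1 annotated transcript, measured 297, 314 and 278 CPM in siCtrl against 262, 294 and 238 CPM in siMED12. HNRNPA0 was lower in every pair and fell by 0.17 ± 0.04 with the block (adjusted p = 0.00118; 0.499 without it). HNRNPD, or AUF1, which directs the decay of AU-rich mRNAs, had the tightest groups, with 407, 402 and 399 CPM in siCtrl against 369, 369 and 373 CPM in siMED12. These groups did not overlap, and HNRNPD fell by 0.12 ± 0.04 with the block (adjusted p = 0.0119; 0.496 without it).

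HNRNPU, a scaffold protein of the nuclear matrix that also regulates splicing, measured 1053, 1120 and 967 CPM in siCtrl against 995, 989 and 928 CPM in siMED12. The groups overlapped, and HNRNPU fell by 0.11 ± 0.04 with the block (adjusted p = 0.0181; 0.642 without it). In all, 24 members were not called with the block, and their estimates ran from -0.12 for HNRNPA3 to 0.14 for HNRNPLL. The groups did not overlap for 5 of 42 members, all of them lower in siMED12 (SRSF7, HNRNPD, SYNCRIP, U2AF2 and QKI), and for 0 members with siMED12 higher. Over all 17901 genes, 1950 (10.9%) had non-overlapping groups with siMED12 lower and 2013 (11.2%) with siMED12 higher. All 3 pairs were lower for 22 of 42 members and higher for 11, against 4839 (27.0%) and 5476 (30.6%) of all 17901 genes.

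PTBP2, the PTB paralog best known from neurons, had the largest increase. It measured 32.1, 28.7 and 39.0 CPM in siCtrl against 40.3, 32.3 and 47.6 CPM in siMED12. It was higher within each pair while the groups overlapped, and PTBP2 rose by 0.26 ± 0.07 with the block (adjusted p = 0.00448; 0.525 without it). That call was lost with DESeq2, with the GC and length correction and without replicate pair 1, where the highest adjusted p was 0.0924. PTBP1, which in many cells holds PTBP2 down by causing an exon of its mRNA to be skipped, measured 484, 549 and 484 CPM in siCtrl against 472, 519 and 465 CPM in siMED12. Its log2 fold change was -0.06 ± 0.04 with the block (adjusted p = 0.242), and the groups overlapped. The other increase outside the SR proteins was that of HNRNPUL1, a protein with roles in RNA handling and in the DNA damage response. It measured 331, 359 and 302 CPM in siCtrl against 352, 405 and 325 CPM in siMED12. HNRNPUL1 was higher in every pair and rose by 0.12 ± 0.04 with the block (adjusted p = 0.0126; 0.658 without it). It passed in 7 of 10 blocked fits and was lost in DESeq2, without replicate pair 1 and without pair 2, where the estimate was 0.07 (adjusted p = 0.244). HNRNPLL had a larger estimate, 0.14 ± 0.07, that did not pass the test (adjusted p = 0.113) and was called higher in 1 of 10 blocked fits.

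**Figure D2:**
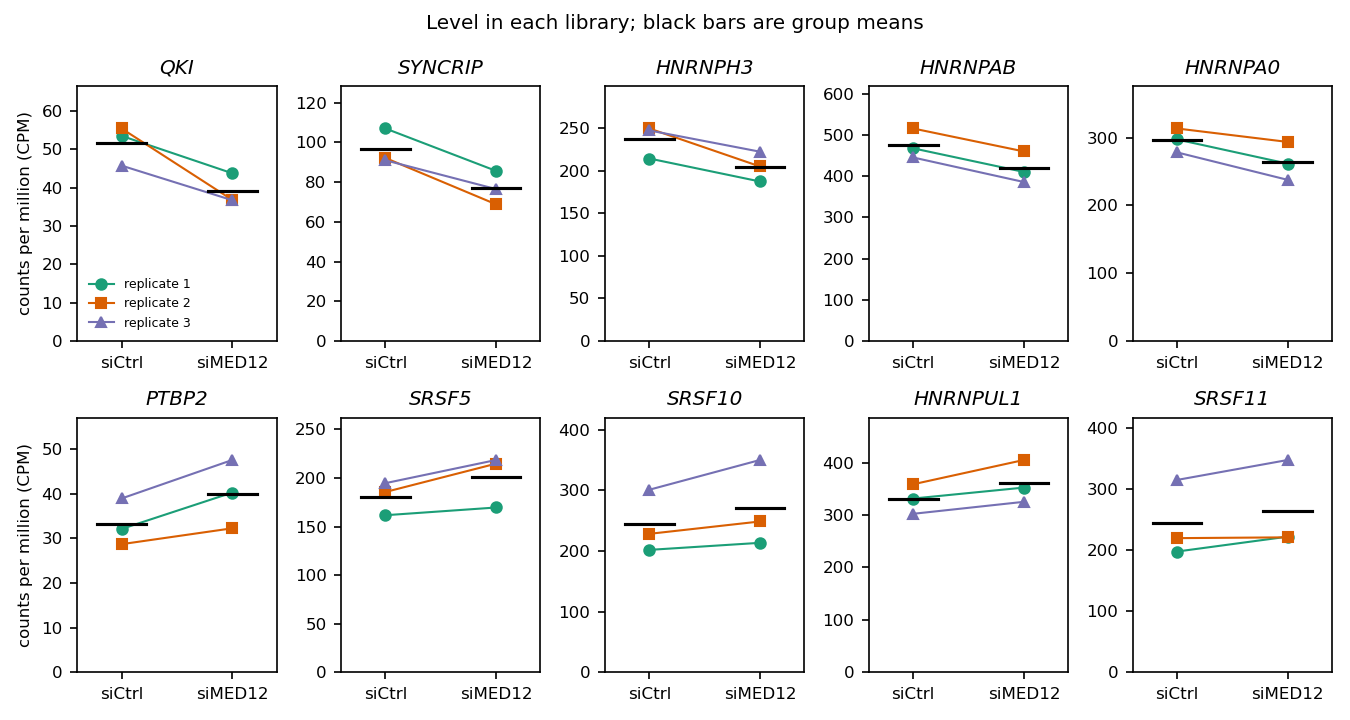
CPM of 10 genes in each library, with lines joining siCtrl and siMED12 libraries of the same replicate number and black bars at the group means; each vertical axis starts at 0. Top row, the 5 largest decreases with the block, where every line slopes down. Bottom row, the 5 increases, where the lines slope up and SRSF11 is nearly level in replicate 2. For all 5 increases the replicate numbers are spread wider than the treatment difference. The siCtrl libraries of HNRNPH3, HNRNPAB and HNRNPA0 in the top row also span more than the difference between group means.

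Among SR proteins, SRSF5 measured 162, 186 and 195 CPM in siCtrl against 170, 215 and 219 CPM in siMED12. It rose by 0.15 ± 0.04 with the block (adjusted p = 0.00645; 0.623 without it), was higher in each pair and overlapped between groups. SRSF10, which turns from activator to general repressor when it loses its phosphates, measured 202, 228 and 301 CPM in siCtrl against 213, 249 and 350 CPM in siMED12. It rose by 0.14 ± 0.04 with the block (adjusted p = 0.00663; 0.797 without it), but the estimate was -0.0048 after the GC and length correction. SRSF11 measured 198, 220 and 315 CPM in siCtrl against 222, 221 and 348 CPM in siMED12, and it rose by 0.11 ± 0.04 with the block (adjusted p = 0.0462; 0.877 without it). The replicate 3 libraries of both groups stood above all others for SRSF10 and SRSF11. SRSF11 passed the test in 4 of 10 fits with the block, SRSF10 in 8 and SRSF5 in 9. Leaving out replicate pair 1 or 3 cost the call of SRSF11, pair 3 that of SRSF10 and pair 2 that of SRSF5, with an estimate of 0.09 (adjusted p = 0.163).

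The SR proteins that fell with the block were SRSF2, SRSF3 and SRSF7. SRSF7, which with its relative SRSF3 also links splicing to mRNA export through NXF1, measured 177, 185 and 182 CPM in siCtrl against 159, 159 and 173 CPM in siMED12. The groups did not overlap, and SRSF7 fell by 0.15 ± 0.04 with the block (adjusted p = 0.00765; 0.439 without it). SRSF3 measured 348, 331 and 308 CPM in siCtrl against 324, 294 and 290 CPM in siMED12, and fell by 0.12 ± 0.04 with the block (adjusted p = 0.0176). SRSF2 measured 345, 367 and 403 CPM in siCtrl against 318, 323 and 382 CPM in siMED12, and fell by 0.13 ± 0.04 with the block (adjusted p = 0.0106). The groups overlapped for SRSF2 and SRSF3, and both were lower within every pair. SRSF1, the founding member of the family and an oncogenic splicing factor, measured 128, 134 and 120 CPM in siCtrl against 128, 115 and 113 CPM in siMED12. Its log2 fold change was -0.10 ± 0.05 and did not pass the test (adjusted p = 0.119). SRSF1 was called lower in 2 of 10 blocked fits, with a lowest adjusted p of 0.000386. In all 10 fits with the block, 6 members were called lower, namely QKI, SYNCRIP, HNRNPH3, HNRNPAB, HNRNPA0 and SRSF7, and 0 members were called higher in all 10. These are 14.3% and 0% of the members, against 10.1% and 7.52% of all genes. By library size alone with the block, the same 6 were the only members called lower. SRSF2, SRSF3, HNRNPD, HNRNPF, HNRNPR, HNRNPU and U2AF2 lost their calls there.

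For the core factors that mark the 3′ splice site, U2AF2, the large subunit that reads the polypyrimidine tract, measured 325, 337 and 352 CPM in siCtrl against 290, 323 and 314 CPM in siMED12. The groups did not overlap, and U2AF2 fell by 0.13 ± 0.04 with the block (adjusted p = 0.00995; 0.530 without it). It passed the test in 6 of 10 fits with the block. The call was lost by library size alone, with the GC and length correction and without replicate pair 1 or 3. Its partner U2AF1, which reads the AG dinucleotide, had a log2 fold change of -0.10 ± 0.06 on its own row (adjusted p = 0.187). With the reads of its near-identical copies added to that row, U2AF1 fell by 0.16 with the block (adjusted p = 0.00943). SF3B1, the U2 snRNP component at the branch point, measured 316, 343 and 370 CPM in siCtrl against 338, 349 and 411 CPM in siMED12. Its log2 fold change was 0.09 ± 0.04 (adjusted p = 0.0701) and turned to -0.03 after the GC and length correction. SF3B1 was called higher in 1 of 10 blocked fits. KHDRBS1, the STAR-domain protein Sam68, measured 289, 287 and 245 CPM in siCtrl against 288, 295 and 252 CPM in siMED12, a log2 fold change of 0.03 ± 0.04 (adjusted p = 0.674).

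HNRNPL, a reader of CA repeats, measured 219, 245 and 277 CPM in siCtrl against 206, 238 and 264 CPM in siMED12. The groups overlapped, and its log2 fold change was -0.07 ± 0.04 with the block (adjusted p = 0.228). HNRNPA2B1, which recognises UAG-containing motifs, had the highest level per kilobase of canonical transcript, 461 ± 21.8 CPM per kb (SD, n = 3) in siCtrl. It measured 1698, 1735 and 1583 CPM in siCtrl against 1586, 1686 and 1562 CPM in siMED12, and its log2 fold change was -0.05 ± 0.03 (adjusted p = 0.239). HNRNPA2B1 was called lower in 1 of 10 blocked fits, with an adjusted p of 0.000336. On each gene's own row, next in level per kilobase in siCtrl came HNRNPAB at 269 ± 20.3, SRSF9 at 259 ± 20.0 and HNRNPH1 at 251 ± 36.0 CPM per kb. These 3 lay within their spread of each other. HNRNPA1 had 76.6 CPM per kb on its own row, which held only 19.7% to 22.6% of the reads on it and its near-identical copies. Its level, and so its place in this order, would be higher with the copies counted. At the low end, HNRNPLL and PTBP2 had 10.0 CPM per kb each, with SDs of 0.97 and 1.57, and QKI had 5.50 ± 0.55 CPM per kb. Long annotated exons lower this measure, and over the union of annotated exons HNRNPAB ranked above HNRNPA2B1 while SRSF9 ranked 10th.

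HNRNPA1, the archetypal splicing silencer of its family, could be read only with its copies. Its own row held 4608, 4662 and 4784 counts in siCtrl against 4343, 4688 and 4800 counts in siMED12. The rows of 3 near-identical copies held more reads in sum. HNRNPA1P7 had 8850 counts on average in siCtrl, HNRNPA1P10 had 5756 and HNRNPA1L3 had 3844. Only 19.7% to 22.6% of the reads on HNRNPA1 and its copies were on the HNRNPA1 row. HNRNPA1P7 shares the first 652 of the 1119 coding bases of HNRNPA1 without a mismatch. Alone, HNRNPA1 had a log2 fold change of -0.05 ± 0.04 with the block (adjusted p = 0.384). Of the 10 blocked fits, 2 called HNRNPA1 lower, the fit with copies added included. With the copies summed onto its row, it held 22985, 23625 and 22810 counts in siCtrl against 20720, 22872 and 21269 counts in siMED12, and it fell by 0.13 on the log2 scale with the block (adjusted p = 0.00435; 0.561 without it).

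**Figure D3:**
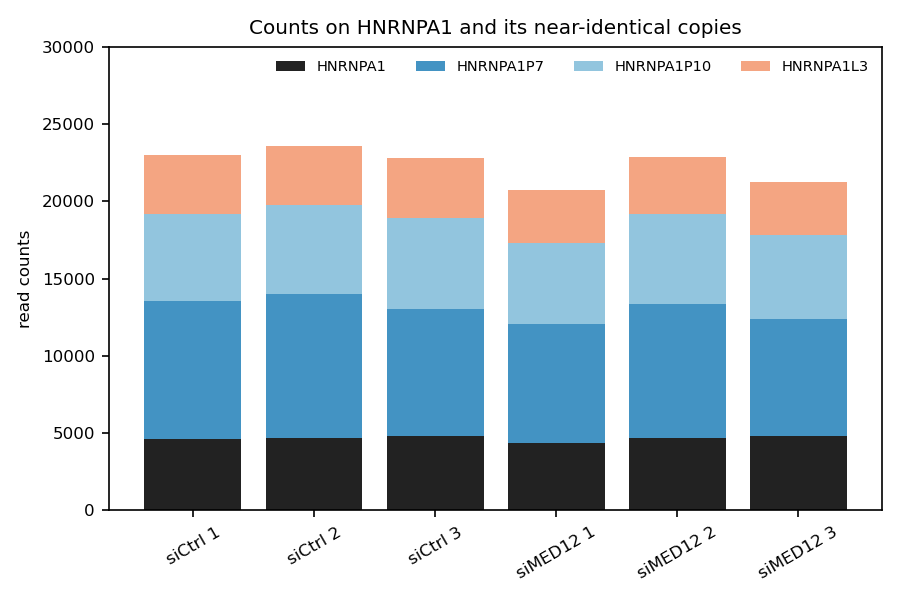
Read counts on HNRNPA1 and on 3 near-identical copies in each of the 6 libraries, stacked from 0. The black segment, HNRNPA1 itself, stays between 4343 and 4800 counts, and the copies above it make up most of each bar.

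Other members shared reads with copies to a lesser extent. The own row held 56.5% of the reads of HNRNPA3 and its copies, 59.8% for U2AF1, 76.4% for HNRNPC, 76.5% for HNRNPL, 83.9% for SYNCRIP, 86.6% for HNRNPK and 92.3% for SRSF6. For U2AF1 the partner was a duplicate locus of the reference that shares 98.7% of its sequence words. With all copies added, 5 members rose and 15 fell with the block. Exons of 13 members overlap a gene on the opposite strand, for example SRSF2 with MFSD11, SRSF9 with GATC and HNRNPU with COX20. The libraries keep strand, but the strand setting of the counting is not given in the sources used here, so these genes remain uncertain in that respect. On the same strand, exons of SYNCRIP, SRSF1 and HNRNPUL2, among others, share 2832, 1890 and 2391 bases with another annotated gene. How reads in such overlaps were counted is not given either.

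Replicate number took a larger share of the sums of squares of these genes than knockdown did. The shares were not divided by degrees of freedom. Replicate number has more levels than the treatment, so part of its larger share would arise without any real shift. In a split of the sums of squares of log2 CPM over the 6 libraries, the median member had 71.5% on the replicate number and 21.5% on the treatment, against medians of 56.8% and 20.5% over all genes. The replicate number took more than the treatment in 33 of 42 members (78.6%) and in 67.7% of all genes. Its share was 97.3% for KHDRBS1, 97.0% for TRA2B, a sequence-specific activator related to the SR proteins, and 95.6% for SRSF11. The opposite held for HNRNPD, with 97.3% on the treatment and 0.51% on the replicate number. Replicate 3 exceeded replicate 1 by 0.67 log2 units for SRSF11 in siCtrl and by 0.65 in siMED12, and by 0.58 and 0.71 for SRSF10. TRA2B went the other way, with differences of -0.49 and -0.53. In both groups replicate 3 was above replicate 1 for 8 of 11 SR genes and below it for 14 of 20 hnRNP genes. Of all 17901 genes, 6725 were above in both groups and 7163 below in both. For SRSF10, SRSF11 and TRA2B these differences between replicates exceeded the estimate of the knockdown difference of every SR gene, the highest of which was 0.15 for SRSF5.

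**Figure D4:**
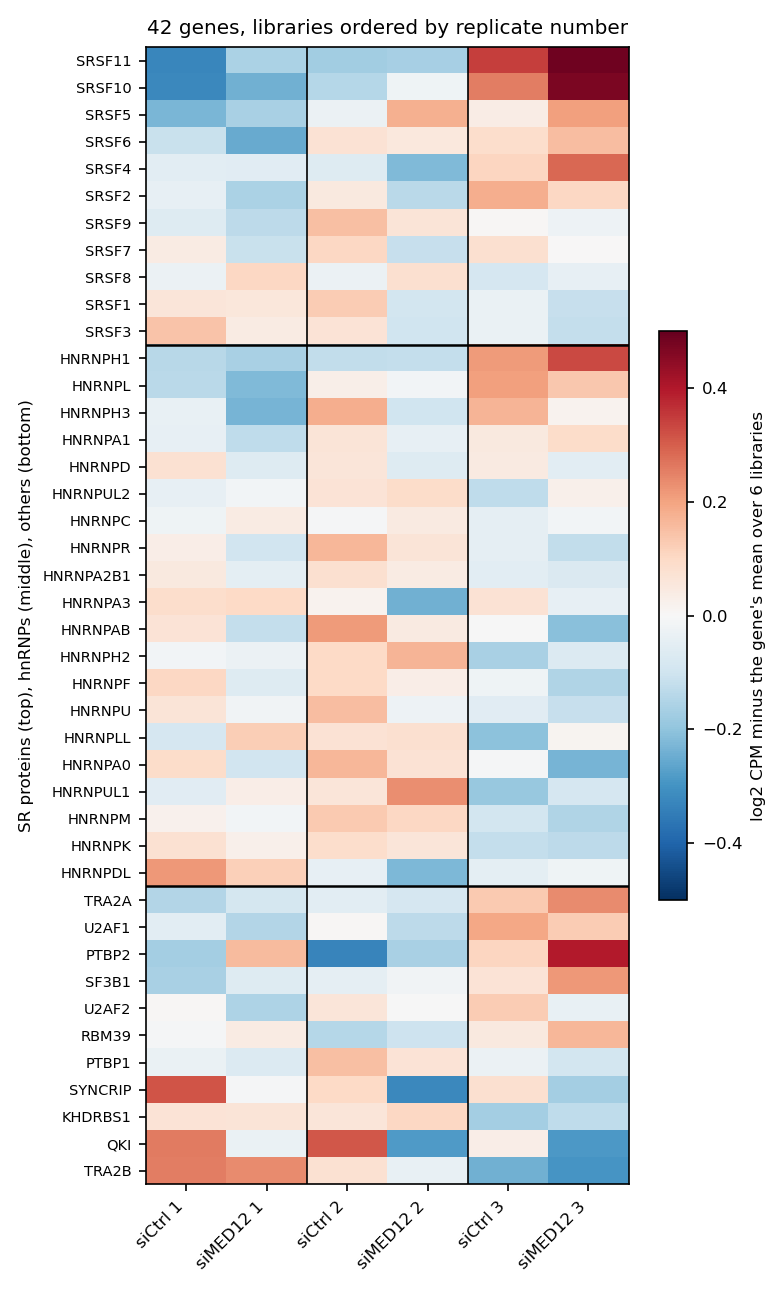
Log2 CPM of each of the 42 genes minus its mean over the 6 libraries, with libraries ordered by replicate number and genes ordered within each family by replicate 3 minus replicate 1. SRSF11 and SRSF10 at the top of the SR block run from blue in replicate 1 to red in replicate 3 in both siCtrl and siMED12, TRA2B at the bottom runs the opposite way, and the paired columns differ less than the replicate blocks for most rows.

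The wider splicing machinery was measured in 105 further genes in 5 lists, all of which passed the filter. Without the block, edgeR called 0 of 105, with 2 higher and 15 lower at an unadjusted p below 0.05. With the block, 11 rose (10.5%) and 30 fell (28.6%), against 17.1% and 16.2% of all genes. The SR protein kinases, which phosphorylate the arginine- and serine-rich domains, had 4 members higher and 1 lower of 8, with a median log2 fold change of 0.16 in the same fit. These counts were 3 and 2, with a median of 0.09, after the GC and length correction, and 2 were higher in DESeq2 or without replicate pair 3. SRPK1, the main cytoplasmic SR kinase, measured 164, 181 and 142 CPM in siCtrl against 127, 136 and 121 CPM in siMED12. The groups did not overlap, and SRPK1 fell by 0.34 ± 0.05 with the block (adjusted p = 2.67e-07; 0.184 without it). Its paralog SRPK2 rose by 0.25 ± 0.05 (adjusted p = 0.00018) and the nuclear kinase CLK2 by 0.31 ± 0.05 (adjusted p = 3.55e-06), neither of which passed without the block.

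Of 21 Sm, U1 and U2 snRNP proteins, 10 fell (47.6%) and 0 rose with the block, against 16.2% and 17.1% of all genes. At an unadjusted p below 0.05 in that fit 0 were higher as well, and the median was -0.18. The count became 1 higher and 10 lower with library size only, beside 3807 and 2413 over all genes. SNRPF, a subunit of the Sm ring, measured 55.1, 56.1 and 52.2 CPM in siCtrl against 45.2, 40.9 and 41.9 CPM in siMED12 without overlap, and fell by 0.35 ± 0.07 with the block (adjusted p = 4.29e-05; 0.145 without it). PHF5A, which sits in the SF3B complex beside SF3B1, fell by 0.33 ± 0.09 (adjusted p = 0.00213; 0.0562 without replicate pair 1). Of 32 tri-snRNP and catalytic proteins, 11 fell (34.4%) and 0 rose with the block, with a median of -0.10. With library size only, 2 of them rose and 8 fell. LSM7 of the U6 ring fell by 0.36 ± 0.05 (adjusted p = 1.08e-06) and EFTUD2, the U5 GTPase, by 0.32 ± 0.05 (adjusted p = 5.05e-07). Neither LSM7 nor EFTUD2 overlapped between groups.

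Of 30 SR-related and other nuclear RNA-binding proteins, 5 rose and 5 fell with the block, 16.7% in each direction and thus close to the share over all genes. These counts became 9 and 4 by library size alone, beside 3807 and 2413 over all genes. They became 3 and 13 with the GC and length correction, beside 2529 and 3396, and 5 and 8 without replicate pair 1. The median, 0.02, turned to -0.03 after the GC and length correction. Without replicate pair 1, 2 or 3 it was -0.019, -0.0066 or -0.0041. RBM5, a regulator of splicing linked to apoptosis, rose by 0.43 ± 0.05 (adjusted p = 5.92e-09), a larger estimate than that of any of the 42 members. TIA1, which helps U1 to weak 5′ splice sites, rose by 0.31 ± 0.05 (adjusted p = 1.17e-06). ESRP2, an epithelial splicing regulator, fell by 0.26 ± 0.05 (adjusted p = 4.04e-05), while its paralog ESRP1, named after its values were seen, rose by 0.23 ± 0.05 (adjusted p = 0.000206). PNN, a nuclear speckle protein, fell by 0.19 ± 0.04 (adjusted p = 0.000712). The groups overlapped for RBM5, TIA1 and PNN and not for ESRP1 and ESRP2. Of 14 decay and exon junction factors, 2 rose (14.3%) and 3 fell (21.4%) with the block, also near the share over all genes. MAGOH and EIF4A3, both of the exon junction core, fell by 0.36 ± 0.08 (adjusted p = 0.000435) and 0.16 ± 0.05 (adjusted p = 0.0071). SMG6, the endonuclease of nonsense-mediated decay, rose by 0.23 ± 0.06 (adjusted p = 0.00353) and UPF3A by 0.20 ± 0.07 (adjusted p = 0.0181). Both of these calls were lost without replicate pair 1 and without pair 2, and UPF3A passed in 6 of 10 blocked fits and SMG6 in 8. None of these 105 genes passed the test without the block.

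**Figure D5:**
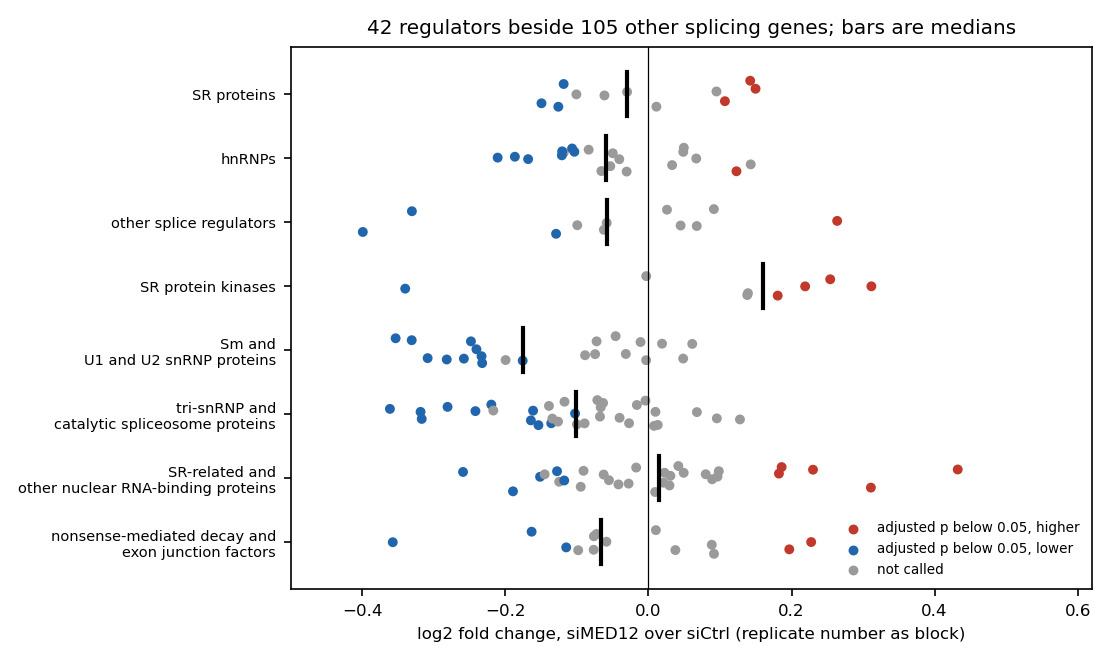
Log2 fold change with the block of the 42 regulators in 3 groups and of 105 other splicing genes in 5 lists; each point is a gene, coloured by its call, and black bars are medians. The snRNP and tri-snRNP lists lie mostly left of 0 with no gene called higher, the SR protein kinases lie mostly to the right with SRPK1 alone far to the left, and the SR proteins and hnRNPs sit within 0.21 of 0.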

How the data were processed

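Poly(A) RNA of 22Rv1 cells was sequenced in 6 strand-specific libraries, 3 siCtrl and 3 siMED12. The authors aligned and counted reads with Rsubread against Gencode Release 43 (GRCh38.p13) and deposited raw counts per gene and log2 CPM values, the latter written with decimal commas. Per the methods, replicates were biological, in general 3 or more. Recomputing the log2 values from the counts with edgeR, a prior count of 2 and TMM scaling gave a maximum difference of 4.96e-09.

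The deposited counts of 17901 genes that passed filterByExpr were tested with edgeR 4.0.16 in R 4.3.3 (TMM, quasi-likelihood F-test, Benjamini-Hochberg adjustment, threshold 0.05), without and with replicate number as blocking factor (the block). Deviations from the group means correlated at 0.53, 0.37 and 0.64 between libraries with the same number and at -0.46 to -0.02 otherwise, and this taking of the numbers as pairs comes from those correlations. DESeq2 1.42.0 and limma 3.58.1 were alternatives. The tests were checked on simulated counts of 17580 genes for this comparison. Of 200 genes changed by a factor of 2, 59% were recovered without the block, with 0 false calls, and 99% with it, with 9 false calls. The simulated counts carried the observed differences between replicate numbers and the dispersions of the blocked design, so they favoured the block. The changed genes were drawn from well-counted genes, and a factor of 2 exceeds every change among the members. The check therefore cannot show how well changes as small as theirs are recovered.

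Levels per kilobase used canonical transcripts of Gencode 44 (GRCh38). A copy was a gene with counts in the deposited data that shared at least 5% of a member's stretches of 50 bases. RPL36A-HNRNPH2 and HNRNPUL2-BSCL2 were left out by name. Genes that share 62.9% of the stretches of SYNCRIP and 29.3% of those of SRSF1 had no counts or no entry in the deposited data. Promoter windows came from RefSeq, without entries for HNRNPA1, QKI, RBM39, SRSF2 and TRA2A. Members and lists were chosen with earlier results of these data known. Named genes were the 5 largest changes in each direction with the block, the largest in each direction in each group, 11 fixed genes, and up to 2 per direction in each further list. HNRNPR, HNRNPF, HNRNPU, HNRNPH1, HNRNPH2, HNRNPD, U2AF1, TRA2B and the members with copies were added after their values were seen. Some sequence and background are not reported here.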

Additional observations from a re-analysis of the deposited data

How the results depend on the processing

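Over all genes, the fit without the block called 27 higher and 74 lower. Library size only gave 49 lower, no filter beyond 1 count gave 186 and 290, a mean of at least 1 CPM gave 118 lower, and DESeq2 gave 319 and 482. Leaving out 1 library at a time gave 0 to 8 higher and 0 to 37 lower, with 0 of either when siCtrl 1, siCtrl 2, siMED12 1 or siMED12 2 was left out. With the replicate block the counts were 3058 higher and 2908 lower, 3807 and 2413 by library size, 2960 and 3069 by DESeq2 scaling, 3077 and 2907 in limma-trend, 1780 and 2063 in DESeq2, 2529 and 3396 with the GC and length correction, and 3060 and 2909 with copies added, a choice made after seeing the data. Without replicate pair 1, 2 or 3 it gave 2070, 2199 or 2375 higher and 2578, 2654 or 2579 lower. Each setting without the block called 0 members. With it, 5 members were higher and 13 lower, 9 and 6 by library size, 4 and 13 by DESeq2 scaling and in limma-trend, 2 and 12 in DESeq2, 2 and 20 with the GC and length correction, 5 and 15 with copies added, and 2 to 3 and 12 to 13 without a pair. The cause of these shifts was not tested.

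The hnRNP median, -0.06, was -0.019 by library size, -0.018 with the block added and -0.14 in the blocked fit corrected for GC and length. It ranged from -0.096 to -0.035 without 1 library and was -0.083 with the block without replicate pair 3. The SR median ranged from -0.097 to 0.039 without 1 library. The median of the other regulators was -0.016 by library size and -0.017 with the block added, ranged from -0.071 to 0.0044 without 1 library and was -0.088 with the block without replicate pair 1. MED12 kept its direction, -1.90 to -1.45 without 1 library, but did not pass without siCtrl 1, siCtrl 2, siMED12 1 or siMED12 2. In the blocked fit corrected for GC and length, direction turned for SRSF10 (-0.0048), SF3B1 (-0.025) and KHDRBS1 (-0.0031), and without replicate pair 2 for KHDRBS1 (-0.0086). Without 1 library, estimates without the block crossed 0 for SRSF10 (-0.075 to 0.33), SRSF11 (-0.14 to 0.33), HNRNPL (-0.17 to 0.023), PTBP1 (-0.13 to 0.0044) and KHDRBS1 (-0.051 to 0.093). The block changed no call other than those given. With 3 libraries a group and shifts between replicate numbers that exceed most differences, small changes could not be told from the spread without the block.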
